A study of Canis lupus familiaris with 6 samples.

Results

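Healing of a drilled hole in the jaw bone that received no implant was followed from day 4 to day 7. The comparison used the 2 arrays of empty holes at these days, out of 6 arrays in the series, and each day is 1 array. The specimens were cylinders of 4.5 mm diameter and 8 mm length cut from the mandibles of beagle dogs aged 9 years. Premolars had been extracted, the jaw had healed for 3 months, and the holes were then drilled, which applies to every specimen of the series. The empty holes carry the treatment label none. A second pair of arrays, from holes filled with beta-TCP (beta-tricalcium phosphate, a ceramic that the body resorbs) at the same days, is set beside them and shares no array with them. How many dogs were used, and whether the specimens of days 4 and 7 came from the same dog, is not given in the sources used here, so day and animal cannot be told apart.

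A hole drilled in bone fills with a blood clot, which neutrophils and then macrophages enter and clear. Vessels and fibroblast-like cells grow in and form granulation tissue, a provisional matrix rich in collagen. Osteoblasts then lay down woven bone on that matrix, while osteoclasts, large cells that arise from the macrophage lineage, resorb bone with acid and proteinases.

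Levels are given as multiples of the array's own median over all probe sets, and differences as day 7 minus day 4 of log2(level + 1). With 1 array per day these differences have no replicate check, no error and no p-value. A gene is called higher or lower where this difference reaches 2-fold (an absolute log2 difference of at least 1). The added 1 shrinks the differences of weak genes, so "within 2-fold" refers to this scale and not to the ratio of the levels. Each specimen is a mixture of cells, in which fewer cells of a type and less RNA per cell cannot be told apart. The probe sets of the highest mean stood for 15112 genes, and 10530 genes passed the filter on low values. The levels at days 4 and 7 had a Spearman correlation of 0.866 over all probe sets.

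Of the 10530 genes, 1678 were higher at day 7 (15.9%) and 498 were lower (4.73%). At least 4-fold differences were found for 229 higher and 80 lower genes, and at least 8-fold differences for 41 and 13. The median difference over all genes was 0.27 rather than 0, so the split between higher and lower depends on the scaling. Higher genes made up 77.1% of the calls here, 53.2% when differences were taken relative to the median gene (999 higher and 879 lower), 56.6% after quantile normalization (987 and 758) and 44.1% after scaling to the 90th percentile (790 and 1003). Each gene group is therefore to be read against the median of 0.27. Of 182 genes of the described groups that were higher, 125 stayed at least 2-fold higher after scaling to the 90th percentile, and the largest difference that fell below 2-fold was 1.45. All 73 lower genes stayed at least 2-fold lower, and 40 more became so. Group counts under that scaling are given at least where they moved by 3 or more genes. Counts at the beta-TCP site are to be read against the shares of all genes at that site, 4.87% higher and 2.58% lower.

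The name type of the probe set also moved with the result. Probe sets named Cfa stood for 5195 genes with a median difference of 0.51, of which 23.2% were higher and 3.46% lower. Those named CfaAffx stood for 5335 genes with a median of 0.07, of which 8.9% were higher and 5.96% lower. Within the 3748 genes that have both, the CfaAffx value lay below the Cfa value by a median of 0.32, with a Pearson correlation of 0.62 across genes, which are not independent replicates. Using Cfa probe sets alone gave 1273 higher and 254 lower genes (83.4% higher), and using CfaAffx probe sets alone gave 769 and 493 (60.9% higher). The part of probe set type in the gene groups was not tested, and the medians of both types are given at least for groups where they lie over 0.5 apart and each type holds 3 or more members.

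**Figure D1:**
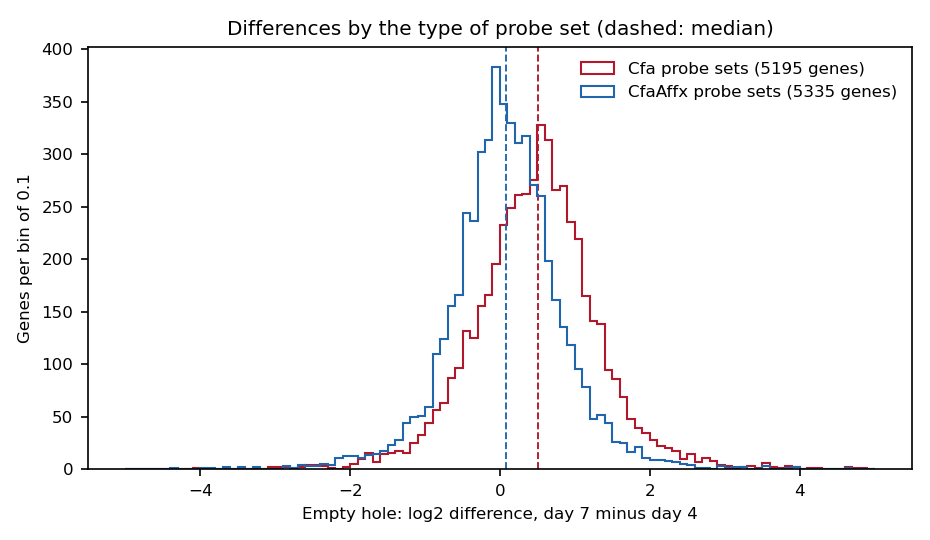
Distribution of the log2 difference, day 7 minus day 4 in the empty hole, for genes represented by Cfa (5195 genes) and CfaAffx (5335 genes) probe sets, in bins of 0.1. The dashed medians lie at 0.51 for Cfa and 0.07 for CfaAffx, so the Cfa genes sit to the right over most of the range.

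Among genes with a name rather than an identifier, the 15 with the largest increase held proteins of bone resorption, matrix turnover, complement and vessels. CRYAB, a small heat shock protein, read 4.73 at day 4 and 168 at day 7 (log2 difference 4.88). RARRES1, a retinoic acid-responsive membrane protein, read 4.73 at day 4 and 157 at day 7 (4.78). ACP5, the tartrate-resistant acid phosphatase of osteoclasts, read 15.9 at day 4 and 429 at day 7 (4.67). MMP13, collagenase 3, followed with 14.3 at day 4 and 384 at day 7 (4.65). Both of its probe sets were higher, by 3.93 and 4.65. All 4 of these genes were also higher at the beta-TCP site, by 2.69, 2.93, 2.92 and 2.69 in the same order.

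The rest of the 15 included C1S and C1R, the serine proteases of the first complement component, and VWF, the endothelial factor that captures platelets. It also held MMP9, a gelatinase, and COL4A2, a chain of basement membrane collagen. PLA2G15, a lysosomal phospholipase, read 3.14 at day 4 and 60.3 at day 7 (3.89). LPL, lipoprotein lipase, read 1.97 at day 4 and 37.4 at day 7 (3.70), and at the beta-TCP site its difference was 0.43. CD5L, a protein secreted by macrophages, read 1.66 at day 4 and 35.7 at day 7 (3.78). PLXNA2, a semaphorin receptor, read 1.52 at day 4 and 34.4 at day 7 (3.82). SLC37A2, a sugar phosphate carrier of macrophages and osteoclasts, stood at 2.70 at day 4 and 55.7 at day 7 (3.94). Of its 3 probe sets 2 were higher, and the other one differed by -0.86.

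The 15 genes with the largest decrease included inflammatory, stress and epithelial genes. AREG, the EGF receptor ligand amphiregulin, read 57.6 at day 4 and 1.88 at day 7 (-4.35), the largest decrease of the 10530 genes. LAMA3, a laminin chain of epithelial basement membranes, read 60.2 at day 4 and 2.68 at day 7 (-4.06). All 3 of its probe sets had negative differences, the smallest of -0.08. SERPINB2, plasminogen activator inhibitor 2, read 133 at day 4 and 7.63 at day 7 (-3.95). DDIT3, a transcription factor of the endoplasmic reticulum stress response, was at 127 at day 4 and 7.87 at day 7 (-3.85). GADD45B, a stress-induced signalling protein, was at 342 at day 4 and 30.1 at day 7 (-3.47). These 3 had differences of -0.10, -2.57 and -2.52 at the beta-TCP site, so SERPINB2 was below 2-fold there.

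Further down this list, CCNL1, a cyclin tied to RNA splicing, read 84.6 at day 4 and 5.73 at day 7 (-3.67). GPAT3, an enzyme of triglyceride synthesis, read 43.6 at day 4 and 3.00 at day 7 (-3.48). CCRL2, a receptor that presents the chemoattractant chemerin, read 132 at day 4 and 13.3 at day 7 (-3.22). MALT1, a protease that activates NF-kB, read 48.3 at day 4 and 4.98 at day 7 (-3.04). KBTBD7, a substrate adaptor of a ubiquitin ligase, was at 58 at day 4 and 5.06 at day 7 (-3.28). TFPI2, a serine protease inhibitor, was at 208 at day 4 and 27 at day 7 (-2.90). All 6 were at least 2-fold lower at the beta-TCP site too, by -1.51, -2.38, -3.48, -2.06, -2.43 and -2.68. The other 4 genes among the 15, KRTDAP, DSC2, IL1B and IL1A, are described with their groups.

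**Figure D2:**
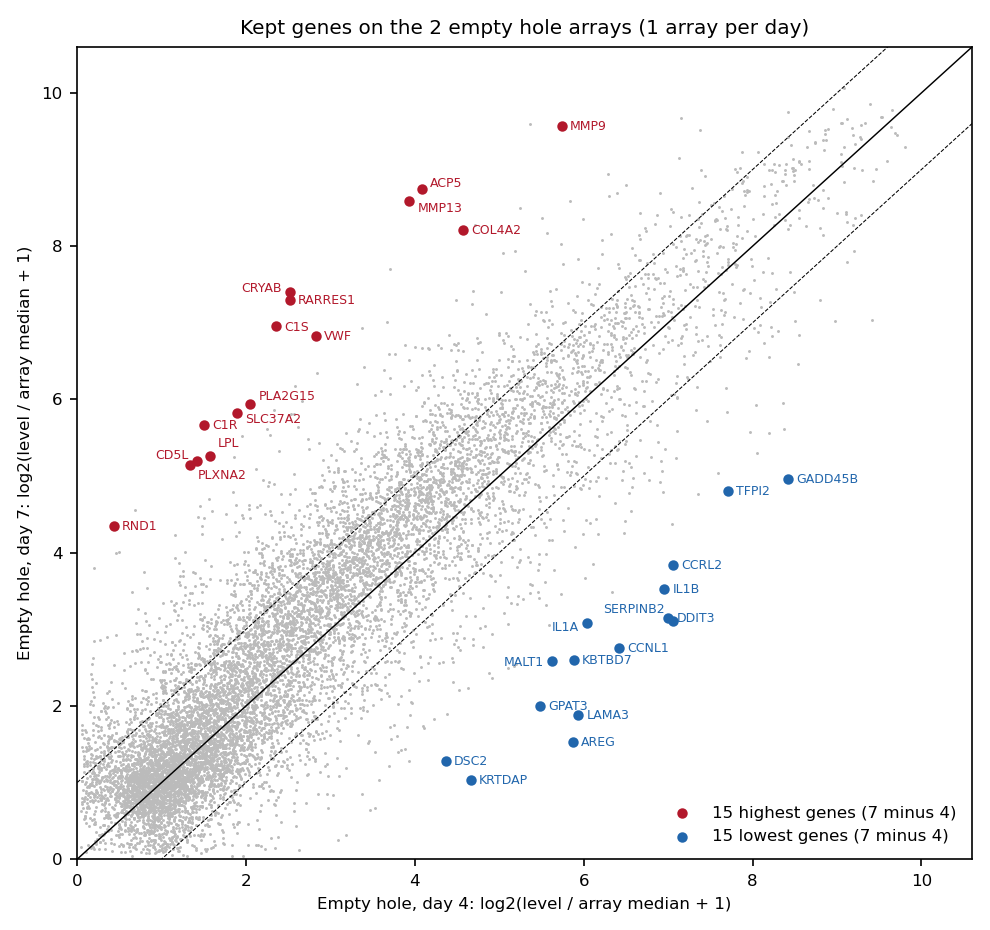
Each point is 1 of the 10530 genes, with log2(level + 1) in the empty hole at day 4 on the x axis and at day 7 on the y axis. The solid line marks equal levels and the dashed lines a 2-fold difference, beyond which lie 1678 genes above and 498 below. The 15 highest (red) and 15 lowest (blue) genes with a name rather than an identifier are labelled.

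Other probe sets of a gene are the only repeat reading on these arrays, although they share the RNA and the array. Of 1116 higher genes with several probe sets above the filter, 838 had all of them on the same side of 0, and of 239 lower genes 216 did. All of them reached 2-fold for 243 of the higher and 128 of the lower genes, so most higher calls with several probe sets rest on only some of them. For example, the lowest probe sets of the higher genes PDPN, CD59, TGM2, BGN and SMOC2 gave 0.34, 0.49, 0.29, 0.05 and 0.12.

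Inflammatory cytokines and chemokines moved in both directions. Of 27 genes that passed the filter, 8 were higher and 9 lower (8 and 13 after scaling to the 90th percentile), against 15.9% and 4.73% of all genes, with a median of -0.28. IL1B, interleukin-1 beta, read 123 at day 4 and 10.5 at day 7 (-3.43), and both of its probe sets were lower. IL1A, interleukin-1 alpha, read 64.8 at day 4 and 7.48 at day 7 (-2.95). IL1RN, the antagonist of the interleukin-1 receptor, read 22 at day 4 and 3.61 at day 7 (-2.32). IL1R2, the decoy receptor of interleukin-1, was at 249 at day 4 and 46.6 at day 7 (-2.39). Both ligands, the antagonist and the decoy receptor of the interleukin-1 system were thus lower at day 7. The neutrophil and monocyte attractants CCL3, CCL4 and PPBP belonged to the same side. CCL3 read 265 at day 4 and 38.5 at day 7 (-2.75), CCL4 192 at day 4 and 31.8 at day 7 (-2.56), and PPBP, a platelet chemokine, 292 at day 4 and 46.3 at day 7 (-2.63). OSM, the macrophage and neutrophil cytokine oncostatin M, read 15.6 at day 4 and 4.03 at day 7 (-1.72), and TNFAIP3, an inhibitor of NF-kB, 7.75 at day 4 and 2.93 at day 7 (-1.15).

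The higher genes of this group were other signals. IL6, interleukin-6, read 11.7 at day 4 and 128 at day 7 (3.34). CXCL12, the stromal attractant of CXCR4-bearing cells, read 3.75 at day 4 and 47.8 at day 7 (3.36). CXCL10, an interferon-induced T cell attractant, read 2.86 at day 4 and 44.9 at day 7 (3.57). They were higher at the beta-TCP site as well, by 1.96, 2.0 and 3.50. CXCL13, a B cell attractant, read 1.74 at day 4 and 23.4 at day 7 (3.15), but its difference at the beta-TCP site was -0.72. SELE, the endothelial adhesion molecule E-selectin, was at 2.68 at day 4 and 23.6 at day 7 (2.74), but CfaAffx probe sets alone gave -0.12. The remaining 3 were CXCL14, CCL8 and CCL20, with differences of 2.38, 2.27 and 2.26.

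Several inflammatory genes stayed within 2-fold on the probe sets used. CXCL8, the main neutrophil attractant, read 582 at day 4 and 309 at day 7 (-0.91). Its 3 probe sets gave -2.20 to -0.91, so the one used here has the smallest difference and the others were at least 2-fold lower. PTGS2, the inducible cyclooxygenase, read 294 at day 4 and 154 at day 7 (-0.93), and CCL2, a monocyte attractant, 78.9 at day 4 and 64.7 at day 7 (-0.28). TNF was at 1.79 at day 4 and 1.76 at day 7 (-0.01). The 19 genes on Cfa probe sets had a median of -0.28 and the others -0.58. When CfaAffx probe sets alone were used, the list median turned positive, to 0.27.

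Neutrophil genes were lower or within 2-fold. All 14 that passed the filter had negative differences, 3 of them at least 2-fold (9 after scaling to the 90th percentile), and their median was -0.82. TREM1, an amplifying receptor of neutrophils and monocytes, read 131 at day 4 and 19.7 at day 7 (-2.67). NCF1, a subunit of the NADPH oxidase, read 8.12 at day 4 and 1.29 at day 7 (-1.99), and FPR2, a receptor for formyl peptides, 4.20 at day 4 and 1.43 at day 7 (-1.10). The calprotectin subunits differed little: S100A8 read 824 at day 4 and 711 at day 7 (-0.21) and S100A9 840.1 at day 4 and 699 at day 7 (-0.26). CSF3R, the receptor for granulocyte colony-stimulating factor, was at 24.6 at day 4 and 13.2 at day 7 (-0.85). Around beta-TCP 3 of the 14 were lower and none higher, with a median of -0.52. The median of Cfa and of CfaAffx members was the same, -0.82.

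Macrophage genes split. Of 24 genes, 7 were higher and 8 lower, with a median of 0.16. Scaling to the 90th percentile turned the median to -0.20 and left 4 higher. CD68, a lysosomal glycoprotein of macrophages and osteoclasts, read 132 at day 4 and 347 at day 7 (1.38). The subunits of the complement recognition protein C1q, made by macrophages, were higher, with C1QA at 7.02 at day 4 and 24.6 at day 7 (1.67) and C1QC at 4.98 at day 4 and 20.9 at day 7 (1.88). GPNMB, a glycoprotein of phagocytes, read 46 at day 4 and 8.97 at day 7 (-2.24), and VSIG4, a complement receptor of resident macrophages, 6.78 at day 4 and 0.797 at day 7 (-2.11). FCGR1A, the high-affinity receptor for IgG, was at 297 at day 4 and 123 at day 7 (-1.27), and MSR1, a scavenger receptor, at 2.91 at day 4 and 0.0279 at day 7 (-1.93). CD163, the haemoglobin scavenger receptor, stayed at 29.2 at day 4 and 27.8 at day 7 (-0.06), and CD14, the lipopolysaccharide co-receptor, at 48.6 at day 4 and 55.8 at day 7 (0.20). The 14 Cfa members had a median of 0.44 and the CfaAffx members one of -0.91. The summed level of the list was 896 at day 4 and 897 at day 7.

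Complement genes included 8 higher and 1 lower of 13, with a median of 1.07 (5 higher and 2 lower after scaling to the 90th percentile). C1S read 4.10 at day 4 and 123 at day 7 (4.60) and C1R 1.84 at day 4 and 49.7 at day 7 (4.16). SERPING1, the inhibitor of these proteases, read 2.61 at day 4 and 37.1 at day 7 (3.40). CD59, which protects host cells from lysis, was at 14.2 at day 4 and 90.8 at day 7 (2.59). The gene lower at day 7 was C5AR1, the receptor for C5a on neutrophils and macrophages, at 175 at day 4 and 51.5 at day 7 (-1.75). Of the 13 genes, 6 were higher at the beta-TCP site and none lower, with a median of 0.93. Members on Cfa probe sets had a median of 1.56 and the others -0.44. C1S had 4 probe sets, with differences from 0.00 to 4.60.

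Genes of coagulation and plasminogen activation included 4 higher and 4 lower among 11 (1 and 6 after scaling to the 90th percentile). Apart from SERPINB2 and TFPI2, the lower ones were PLAU, the urokinase-type plasminogen activator, at 40.8 at day 4 and 11 at day 7 (-1.80), and F13A1, the clot-stabilizing factor XIII, at 9.35 at day 4 and 3.70 at day 7 (-1.14). Higher beside VWF were SERPINE2, a protease inhibitor of the cell surface, at 234 at day 4 and 597 at day 7 (1.35), TFPI (1.25) and PROS1 (1.30), which restrain clotting.

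Growth factor and receptor genes moved in both directions, with medians of 0.96 on Cfa and -0.09 on CfaAffx probe sets. The ligands of the EGF receptor family AREG, HBEGF, EREG and NRG1 made up all 4 lower genes among 23 of the list. HBEGF read 14.4 at day 4 and 2.69 at day 7 (-2.06), EREG 6.04 at day 4 and 1.48 at day 7 (-1.51) and NRG1 5.23 at day 4 and 1.87 at day 7 (-1.12). EGFR, the receptor, was within 2-fold, at 8.36 at day 4 and 9.98 at day 7 (0.23). Only AREG and HBEGF were at least 2-fold lower at the beta-TCP site, where EREG and NRG1 differed by -0.02 and -0.04. Among the 8 higher genes were IGFBP6 and IGFBP4, binding proteins of insulin-like growth factors. IGFBP6 read 6.26 at day 4 and 42.1 at day 7 (2.57) and IGFBP4 21.8 at day 4 and 98.7 at day 7 (2.13), although 1 of the 3 probe sets of IGFBP4 gave -0.19. FGFR1, a fibroblast growth factor receptor, was at 0.141 at day 4 and 5.18 at day 7 (2.44), and PTN, the heparin-binding factor pleiotrophin, at 10.7 at day 4 and 34.5 at day 7 (1.60).

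**Figure D3:**
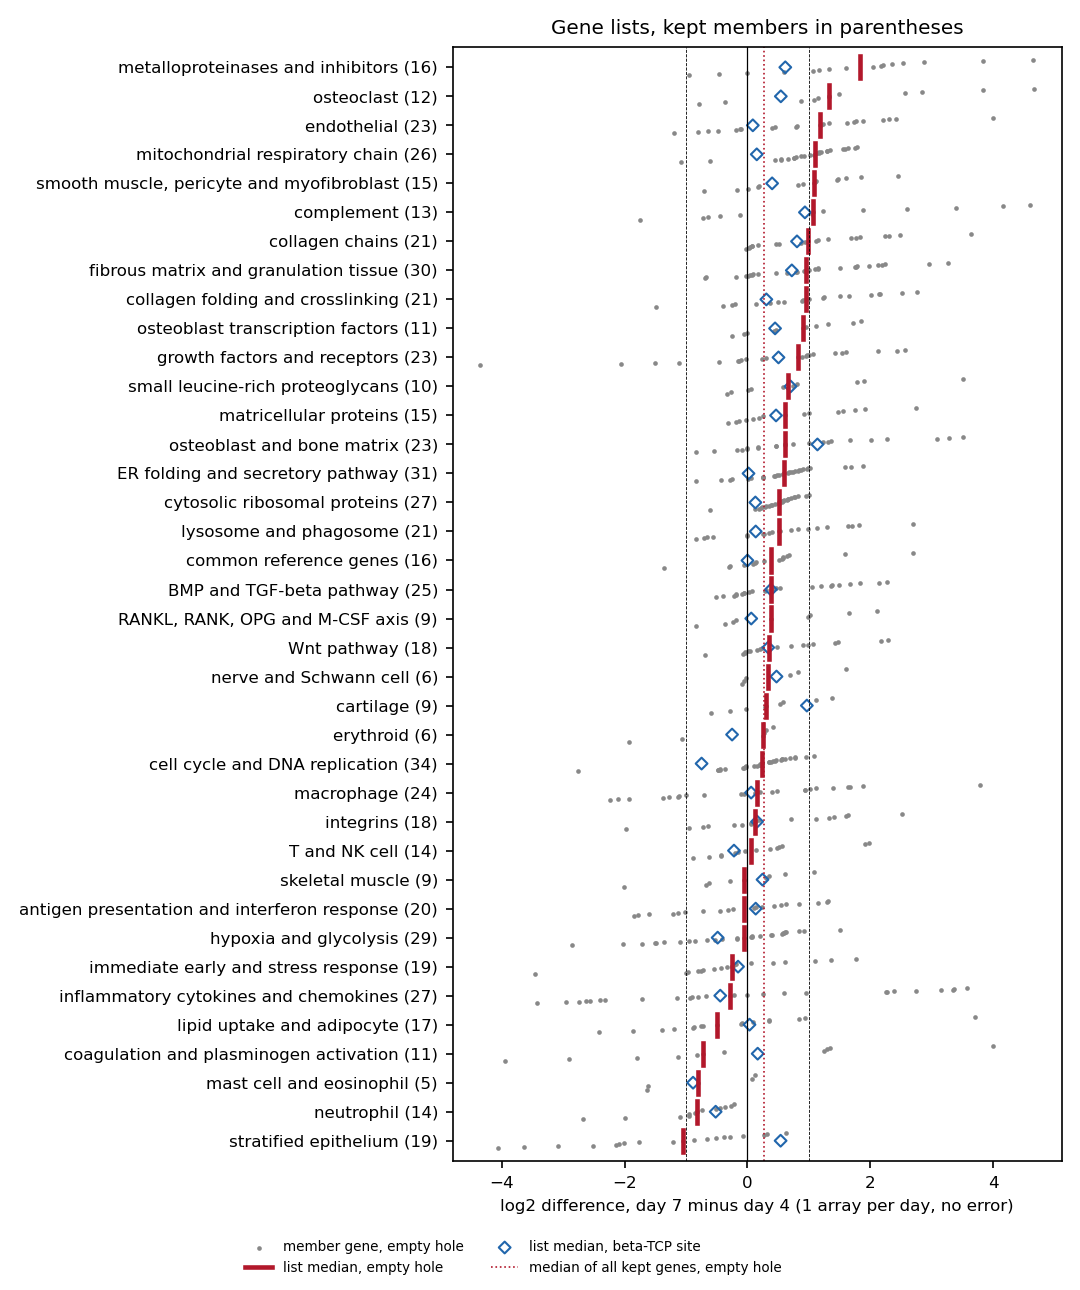
Log2 difference, day 7 minus day 4, for the members of the gene lists (grey points, number of members in parentheses) with the list median in the empty hole (red bar) and at the beta-TCP site (blue diamond). The dotted line is the median of all genes in the empty hole (0.27) and the dashed lines are 2-fold. Metalloproteinases have the highest median (1.82) and stratified epithelium the lowest (-1.05), where the 2 sites lie farthest apart.

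Genes of the low oxygen response and glycolysis included 1 higher and 7 lower among 29 (1 and 10 after scaling to the 90th percentile), with a median of -0.06. BNIP3, a mitophagy receptor, read 8.05 at day 4 and 0.248 at day 7 (-2.86). EGLN3, an oxygen-sensing prolyl hydroxylase, read 3.92 at day 4 and 0.206 at day 7 (-2.03), and ANKRD37, a HIF target, 81.9 at day 4 and 24.1 at day 7 (-1.72). SLC2A3, a glucose transporter, was at 358 at day 4 and 167 at day 7 (-1.09). VEGFA, the main vessel growth factor, was not among them: it read 69.2 at day 4 and 72.7 at day 7 (0.07). Most glycolytic enzymes were within 2-fold, for example LDHA at 347 at day 4 and 309 at day 7 (-0.17) and ENO1 at 493 at day 4 and 886 at day 7 (0.84). The beta-TCP pair had 5 of 29 lower and none higher, with a median of -0.49. The Cfa members had a median of 0.08 and the CfaAffx members -0.91.

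Immediate early and stress genes mostly stayed within 2-fold, with 3 higher and 2 lower of 19 (2 and 6 after scaling to the 90th percentile). That share of higher genes is near the 15.9% of all genes, and the median was -0.25. FOS read 589.6 at day 4 and 517 at day 7 (-0.19), JUN 51 at day 4 and 78.1 at day 7 (0.60) and EGR1 39.5 at day 4 and 29.2 at day 7 (-0.43). The higher ones were KLF4 at 15.1 at day 4 and 53.9 at day 7 (1.77), a transcription factor whose CfaAffx probe sets gave -0.79, NR4A2 (1.37) and MYC (1.11).

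Many respiratory chain genes were higher. Of 26 genes for subunits of the chain and of ATP synthase, 15 were higher and 1 lower, with a median of 1.09. After scaling to the 90th percentile 5 were higher and 2 lower, with a median of 0.64. NDUFB9, a subunit of complex I, read 25.7 at day 4 and 90.5 at day 7 (1.78). NDUFS1 and NDUFV1, of the same complex, differed by 1.75 and 1.64. SDHA, of complex II, read 16.5 at day 4 and 51.7 at day 7 (1.59), and ATP5F1B, of ATP synthase, 266 at day 4 and 601 at day 7 (1.17). The lower gene was SDHD, also of complex II, at 11.6 at day 4 and 4.94 at day 7 (-1.08). With beta-TCP none was higher and 1 was lower, with a median of 0.15. Of the 26, 21 were read on Cfa probe sets (median 1.11) and the rest on CfaAffx (0.67).

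The 27 cytosolic ribosomal protein genes held no call. Their median of 0.52 became 0.06 after scaling to the 90th percentile. Among 31 genes of the endoplasmic reticulum and secretory pathway, 4 were higher and none lower, with a median of 0.60. That share is near the 15.9% of all genes that were higher. Those 4 were SDF2L1 at 8.03 at day 4 and 32.4 at day 7 (1.89), PDIA4 (1.68), CALR (1.58) and SEC61A1 (1.01), which serve protein folding and translocation. The lowest of the 4 CALR probe sets gave -0.26, and the medians of the list were 0.67 on Cfa and 0.16 on CfaAffx probe sets. None of the 31 was called at the beta-TCP site, where SDF2L1 differed by 0.01.

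Cell cycle genes mostly stayed within 2-fold in the empty hole. Of 34 genes, 1 was higher and 1 lower, with a median of 0.24, close to that of all genes. TOP2A, a topoisomerase of dividing cells, read 52.1 at day 4 and 56.4 at day 7 (0.11). CDK1, the mitotic kinase, read 14.3 at day 4 and 13.8 at day 7 (-0.05), and RRM2, a subunit of ribonucleotide reductase, 15.4 at day 4 and 25.6 at day 7 (0.70). PCNA, the DNA polymerase clamp, stood apart at 329 at day 4 and 47.9 at day 7 (-2.76). Its 2 probe sets gave -2.76 and -2.14. The higher gene was MCM7 (1.08), of the replicative helicase. In the holes with beta-TCP 12 of the 34 were lower and none higher, against 2.58% and 4.87% of all genes there, with a median of -0.75. There TOP2A read 99.3 at day 4 and 46.7 at day 7 (-1.07). MKI67 is not among the measured genes.

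Vessel genes were higher in part. Of 23 endothelial genes, 12 were higher and 1 lower (8 and 2 after scaling to the 90th percentile), with a median of 1.18. VWF read 6.09 at day 4 and 112 at day 7 (4.00). KDR, the main receptor for VEGF, read 18.4 at day 4 and 103 at day 7 (2.42). PECAM1, the junction protein CD31, read 33.4 at day 4 and 113 at day 7 (1.73). The 4 probe sets of PECAM1 gave 0.34 to 1.73, and only the one used here reached 2-fold. PDPN, a glycoprotein of lymphatic endothelium also made by fibroblasts and osteocytes, read 82.9 at day 4 and 415 at day 7 (2.31). TIE1, ENG and EGFL7, which act in vessel growth, differed by 2.21, 1.88 and 1.61. The lower gene was ERG, an endothelial transcription factor, at 3.63 at day 4 and 1.01 at day 7 (-1.20). CDH5, the cadherin of endothelial junctions, was at 2.79 at day 4 and 1.16 at day 7 (-0.81).

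With beta-TCP, 5 of the 23 endothelial genes were higher, with a median of 0.09. PECAM1 there read 60.3 at day 4 and 79.5 at day 7, so on this probe set the empty hole was below it at day 4 and above it at day 7. Another PECAM1 probe set had the empty hole below on both days, at 19.4 and 31.1 against 35.9 and 42.2. The remaining probe sets of PECAM1 were split. Of the endothelial genes, 10 were on Cfa probe sets, with a median of 1.67 against 0.40 for the others. ERG and CDH5 are among the others.

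Genes of smooth muscle, pericytes and myofibroblasts were also on the higher side, 8 of 15 (4 after scaling to the 90th percentile) with none lower and a median of 1.09. MCAM, an adhesion molecule of pericytes and endothelium, read 20.1 at day 4 and 114 at day 7 (2.45). ACTA2, the smooth muscle actin of myofibroblasts, read 73.5 at day 4 and 269 at day 7 (1.86), and TAGLN, an actin-binding protein, 21.8 at day 4 and 68.7 at day 7 (1.61). TPM2, a tropomyosin, read 17.9 at day 4 and 51.7 at day 7 (1.48), but its 4 probe sets reached down to -1.15. CNN1, a marker of contractile smooth muscle, was at 1.48 at day 4 and 0.511 at day 7 (-0.71). The medians were 1.10 on Cfa and 0.18 on CfaAffx probe sets.

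Genes of fibrous matrix and granulation tissue were higher in 14 of 30 and lower in none (10 and 1 after scaling to the 90th percentile), with a median of 0.96 that became 0.54 after scaling to the 90th percentile. FBN1, the microfibril protein fibrillin-1, read 36.9 at day 4 and 362 at day 7 (3.26). FBLN5, an elastic fibre protein, read 1.83 at day 4 and 20.9 at day 7 (2.95). COL6A1, a chain of microfibrillar collagen, and FBLN1, a fibulin, differed by 2.25 and 2.19. FN1, fibronectin, read 225 at day 4 and 499 at day 7 (1.15). FAP, a protease of activated fibroblasts, was at 11 at day 4 and 46.1 at day 7 (1.98), and PDGFRB, a receptor of mesenchymal cells, at 1.56 at day 4 and 10.1 at day 7 (2.12). Matricellular proteins followed, with TNC, tenascin-C, at 1.43 at day 4 and 7.17 at day 7 (1.75). POSTN, periostin, stayed just short of 2-fold on the log2(level + 1) scale, at 2.73 at day 4 and 6.04 at day 7 (0.92). Both were at least 2-fold higher at the beta-TCP site, by 2.10 and 1.93.

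Of 21 collagen chains 10 were higher and none lower, with a median of 0.98. The 2 chains of basement membrane collagen were among those with the largest differences. COL4A2 read 22.7 at day 4 and 295 at day 7 (3.64) and COL4A1 89.6 at day 4 and 446 at day 7 (2.30). COL1A1, the main chain of bone and scar collagen, read 732 at day 4 and 820.0 at day 7 (0.16). Its 3 probe sets gave 0.16 to 1.45, and the one used here has the smallest difference and the highest level. The highest level of any probe set was 1082 on the day 4 array and 1071 on the day 7 array, and the latter is the COL3A1 probe set used here. COL1A2 read 669.9 at day 4 and 922 at day 7 (0.46) and COL3A1, of granulation tissue, 542 at day 4 and 1071 at day 7 (0.98). The 5 probe sets of COL3A1 gave 0.43 to 1.31. For both genes the largest difference came from a probe set of lower level, so differences between these and other chains depend on the probe set. COL5A2, which regulates fibril width, was at 101 at day 4 and 346 at day 7 (1.77), and COL13A1, a membrane collagen, at 1.32 at day 4 and 12 at day 7 (2.48).

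Enzymes that fold and crosslink collagen were higher in 9 of 21 and lower in 1. TGM2, a transglutaminase, read 3.58 at day 4 and 29.9 at day 7 (2.76). ADAMTS2, which removes the aminopropeptide of procollagen, read 1.38 at day 4 and 12.6 at day 7 (2.52), BMP1, which removes the carboxypropeptide, 9.82 at day 4 and 46.6 at day 7 (2.14), and PLOD3, a lysyl hydroxylase, 7.35 at day 4 and 36.1 at day 7 (2.15). The lower gene was P4HA1, a prolyl hydroxylase subunit induced by low oxygen, at 53.3 at day 4 and 18.4 at day 7 (-1.48). P4HA2, the subunit it alternates with, was at 20.6 at day 4 and 60.5 at day 7 (1.51). The other 5 probe sets of P4HA2 were within 2-fold, with -0.24 the lowest. Cfa members of this list had a median of 1.51 and CfaAffx members -0.04. P4HA1 was read on a CfaAffx and P4HA2 on a Cfa probe set.

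Small leucine-rich proteoglycans, which bind collagen fibrils, included 3 higher genes and no lower one among 10. OMD, osteomodulin of bone matrix, read 6.16 at day 4 and 80.1 at day 7 (3.50). BGN, biglycan, read 21.6 at day 4 and 82.7 at day 7 (1.89) and DCN, decorin, 119 at day 4 and 411 at day 7 (1.78). ASPN and OGN, asporin and osteoglycin, were within 2-fold (-0.33 and -0.28). The medians were 1.29 on Cfa and 0.31 on CfaAffx probe sets. Of 15 matricellular genes 6 were higher and none lower, led by SMOC2, a calcium-binding matrix protein, at 1.42 at day 4 and 15.1 at day 7 (2.74). SPARCL1, a relative of osteonectin, and CCN2, connective tissue growth factor, differed by 1.92 and 1.55. Their medians were 1.24 on Cfa and 0.25 on CfaAffx probe sets.

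Metalloproteinases and their inhibitors had the highest median of the lists, 1.82, with 12 of 16 higher and none lower (9 and 1 after scaling to the 90th percentile). Their median was 1.43 after scaling to the 90th percentile, 1.82 on Cfa and 1.67 on CfaAffx probe sets. MMP9 read 52.5 at day 4 and 758 at day 7 (3.83) and MMP3, stromelysin-1, 8.96 at day 4 and 72.3 at day 7 (2.88). MMP1, interstitial collagenase, read 62.7 at day 4 and 326 at day 7 (2.36), and MMP2, a gelatinase of stromal cells, 8.72 at day 4 and 39.1 at day 7 (2.04), although 1 of 3 probe sets of MMP2 gave -0.17. Their inhibitor TIMP1 was higher too, at 141 at day 4 and 818 at day 7 (2.53), so proteinases and inhibitor were on the same side. MMP14, the membrane-bound activator of MMP2, stayed at 5.35 at day 4 and 5.28 at day 7 (-0.01), and MMP8, the neutrophil collagenase, was at 2.62 at day 4 and 0.865 at day 7 (-0.96). The beta-TCP site had 6 of the 16 higher, with differences of 0.29 for MMP3 and 0.36 for TIMP1.

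Osteoclast genes were higher in 9 of 12 and lower in none, with a median of 1.33. After scaling to the 90th percentile 6 were higher and 1 lower, with a median of 0.95. Beside ACP5 and MMP9, CA2, the carbonic anhydrase that supplies protons, read 13.7 at day 4 and 104 at day 7 (2.84). ATP6V0D2 and TCIRG1 are subunits of the proton pump that acidifies the resorption pit. ATP6V0D2 read 24.5 at day 4 and 151 at day 7 (2.57) and TCIRG1 155 at day 4 and 434 at day 7 (1.48). CTSK, the collagen-degrading cathepsin K, was at 340.2 at day 4 and 857 at day 7 (1.33). CALCR, the calcitonin receptor of mature osteoclasts, was below the filter, at 0.0225 at day 4 and 0.713 at day 7. The 8 Cfa members had a median of 2.03 and the CfaAffx members 0.25. With beta-TCP 4 of the 12 were higher, with a median of 0.54.

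The signals that drive osteoclast formation were less uniform. TNFSF11, the osteoclast-inducing ligand RANKL, read 1.30 at day 4 and 6.19 at day 7 (1.65), and at the beta-TCP site its difference was -0.08. TNFRSF11B, its decoy receptor osteoprotegerin, was at 1.43 at day 4 and 0.362 at day 7 (-0.83). That is within 2-fold on the log2(level + 1) scale, while the weak levels themselves differed by 3.94-fold. TNFRSF11A, the receptor RANK, was at 0.460 at day 4 and 0.133 at day 7 (-0.37). IL34 and CSF1R, a ligand and the receptor of the macrophage colony-stimulating factor pathway, were higher, with IL34 at 1.21 at day 4 and 8.54 at day 7 (2.11) and CSF1R at 3.92 at day 4 and 8.94 at day 7 (1.02). The other CSF1R probe set gave 0.29. In all 3 of 9 genes of this axis were higher and none lower (2 and 1 after scaling to the 90th percentile). The medians were -0.19 on Cfa and 0.70 on CfaAffx probe sets. Of 21 lysosomal genes 6 were higher and none lower (4 and 3 after scaling to the 90th percentile), with GUSB, beta-glucuronidase, at 15 at day 4 and 102 at day 7 (2.69) and NPC2, a cholesterol carrier, at 47.5 at day 4 and 169.6 at day 7 (1.81). MAN2B1, a mannosidase, and ATP6AP1, a proton pump subunit, differed by 1.70 and 1.64, and the medians were 0.72 on Cfa and 0.17 on CfaAffx probe sets.

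**Figure D4:**
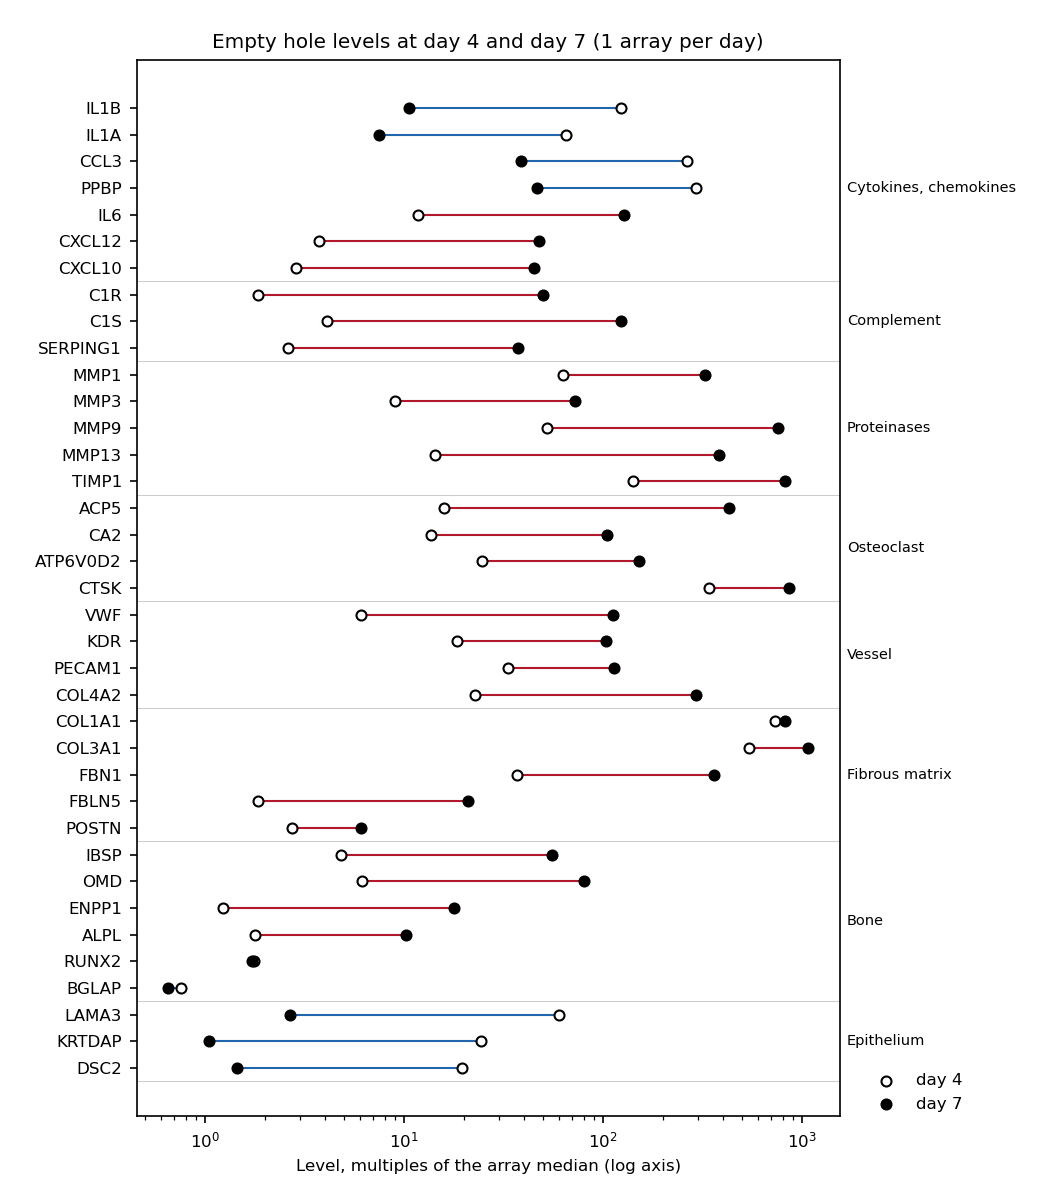
Levels in the empty hole at day 4 (open) and day 7 (filled) in multiples of the array median, on a log axis, for genes grouped by role. Red lines join genes that were higher at day 7 and blue lines genes that were lower, whether or not they reached 2-fold, and levels are to be compared within a gene only. ACP5 goes from 15.9 to 429 and LAMA3 from 60.2 to 2.68, while COL1A1 and RUNX2 stay nearly in place on the probe sets used.

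Bone-forming genes were higher in part. Of 23 osteoblast and bone matrix genes 10 were higher and none lower (7 and 1 after scaling to the 90th percentile), with a median of 0.61, and of 0.46 on Cfa and 0.99 on CfaAffx probe sets. IBSP, bone sialoprotein, read 4.80 at day 4 and 55.3 at day 7 (3.28). ENPP1, which makes the mineralization inhibitor pyrophosphate, read 1.23 at day 4 and 17.8 at day 7 (3.08). ALPL, the alkaline phosphatase that degrades pyrophosphate, read 1.79 at day 4 and 10.2 at day 7 (2.01). The other ALPL probe set differed by 0.40 and was within 2-fold. BMP2, a bone-inducing growth factor, was at 27.7 at day 4 and 137 at day 7 (2.26), and CDH11, the mesenchymal cadherin, at 34.4 at day 4 and 89.5 at day 7 (1.35). Of the osteoblast markers IBSP, ALPL, BGLAP and RUNX2, the first pair were higher and the other pair stayed within 2-fold. SPP1, osteopontin, was within 2-fold at 427 at day 4 and 653 at day 7 (0.61).

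Late markers of the lineage were within 2-fold on the log2(level + 1) scale. Their levels were weak on both days, where the added 1 shrinks differences, so a change in them may not show. BGLAP, osteocalcin, read 0.755 at day 4 and 0.653 at day 7 (-0.09) and MEPE, an osteocyte protein, 0.0730 at day 4 and 0.0659 at day 7 (-0.01). DMP1, another osteocyte protein, was at 0.668 at day 4 and 1.80 at day 7 (0.75) and SOST, sclerostin, at 0.562 at day 4 and 1.37 at day 7 (0.60). Around beta-TCP BGLAP read 0.157 and 4.95 (2.36), and MEPE 0.0472 and 7.64 (3.04). There 12 of the 23 genes were higher, against 4.87% of all genes at that site, with a median of 1.14. The filter takes the mean over all arrays, so the high beta-TCP values of BGLAP and MEPE count toward their place among the 23. The counts of the sites over this list are therefore not an independent comparison. IBSP at that site read 31.9 and 251 (2.94), above the empty hole on both days.

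Transcription factors of osteoblasts included 4 higher genes and no lower one among 11. RUNX2, the master regulator, read 1.75 at day 4 and 1.72 at day 7 (-0.02). DLX5, a homeobox factor that acts in osteoblast maturation, read 0.995 at day 4 and 3.96 at day 7 (1.31). TWIST1, which restrains RUNX2, was at 0.236 at day 4 and 3.09 at day 7 (1.73), MSX1 at 1.83 at day 4 and 5.12 at day 7 (1.11) and ID3, a target of BMP signalling, at 31 at day 4 and 114 at day 7 (1.84). SP7 is not among the measured genes.

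Wnt and BMP signalling genes were higher in a minority. Of 18 Wnt genes 5 were higher and none lower (3 and 1 after scaling to the 90th percentile), among them the secreted antagonists SFRP4 at 14.5 at day 4 and 74.9 at day 7 (2.29) and WIF1 at 42.4 at day 4 and 115 at day 7 (1.42). RSPO3, a Wnt amplifier, read 1.64 at day 4 and 10.8 at day 7 (2.17), and AXIN2, a target and inhibitor of the pathway, 4.73 at day 4 and 14.9 at day 7 (1.47). The other 4 probe sets of AXIN2 were within 2-fold, and the lowest gave -0.59. The Wnt medians were 0.98 on Cfa and 0.17 on CfaAffx probe sets. With no filter 5 of 31 Wnt genes were higher, and their median was 0.06 against 0.12 for all genes. Of 25 BMP and TGF-beta genes 9 were higher and none lower (6 and 0 after scaling to the 90th percentile), with medians of 1.22 on Cfa and 0.08 on CfaAffx probe sets. TGFB1, transforming growth factor beta 1, read 8.56 at day 4 and 33.2 at day 7 (1.84), TGFBR2, its receptor, 73.5 at day 4 and 237 at day 7 (1.67), and INHBA, the activin A subunit, 29.6 at day 4 and 77.3 at day 7 (1.36).

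Few cartilage genes passed the filter. SOX9, the chondrocyte regulator, read 0.0417 at day 4 and 0.601 at day 7 and COL2A1, the main cartilage collagen, 0.0554 at day 4 and 0.374 at day 7, and both were below the filter. ACAN, aggrecan, read 1.20 at day 4 and 4.70 at day 7 (1.37), and of 9 genes that passed the filter, out of 22 listed, 2 were higher and none lower. The second was COL9A1, a chain of cartilage collagen, at 0.349 at day 4 and 1.91 at day 7 (1.11). With beta-TCP 4 of the 9 were higher, and ACAN read 5.34 and 25.8 (2.08).

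Genes of stratified epithelium had the lowest median of the lists, -1.05, with 10 of 19 lower, none higher and 3 positive differences. KRTDAP, a keratinocyte differentiation protein, read 24.3 at day 4 and 1.05 at day 7 (-3.63). DSC2, a desmosomal cadherin, read 19.6 at day 4 and 1.44 at day 7 (-3.08), and EPCAM, an epithelial adhesion molecule, 9.33 at day 4 and 0.799 at day 7 (-2.52). The calcium-binding proteins S100A14 and S100A2 were at 40 at day 4 and 11 at day 7 (-1.77) and 116 at day 4 and 49.8 at day 7 (-1.21). On both probe set types the median was negative, -1.77 on Cfa and -0.86 on CfaAffx.

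The summed level of the 19 epithelial genes in the empty hole was 937 at day 4 and 427 at day 7. The beta-TCP arrays gave 246 and 515, so the empty hole at day 4 is the highest of the 4. KRTDAP at the beta-TCP site read 0.792 at day 4 and 0.646 at day 7. Of the defining markers, DSG3, a keratinocyte desmoglein, was below the filter at 2.38 at day 4 and 0.230 at day 7, TP63, the regulator of basal keratinocytes, was near 0 (0.0232 and 0.0554), and KRT5 and KRT14 are not among the measured genes. ITGA6, an integrin of basal epithelium and endothelium that is not on this list, was at 118 at day 4 and 29.2 at day 7 (-1.98), while its other 3 probe sets were within 2-fold and 1 of them gave 0.30. At the beta-TCP site it differed by 0.26. The part of epithelial tissue in these values was not tested.

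Markers of other tissues and cells did not share a direction. ACTA1, of skeletal muscle, read 1.95 at day 4 and 3.50 at day 7 (its other probe set differed by -1.22), MYH1 0.0636 at day 4 and 0.648 at day 7 (below the filter) and ADIPOQ, of adipocytes, 0.473 at day 4 and 0.885 at day 7. FABP4, a fatty acid carrier of adipocytes, endothelium and macrophages, read 13.3 at day 4 and 1.68 at day 7 (-2.42), and PLIN2, which coats lipid droplets, 206 at day 4 and 56 at day 7 (-1.86). They belong to 17 genes of lipid uptake and adipocytes, of which 1 was higher and 4 lower (1 and 7 after scaling to the 90th percentile), with medians of -0.10 on Cfa and -0.89 on CfaAffx probe sets. PPARG, the regulator of fat cell formation, was at 1.86 at day 4 and 0.0939 at day 7 (-1.39). Mast cell and eosinophil genes were lower in 2 of 5, with the IgE receptor chain FCER1A at 43.3 at day 4 and 13.4 at day 7 (-1.62) and CCR3, the eotaxin receptor, at 5.60 at day 4 and 1.13 at day 7 (-1.63). Both were also lower at the beta-TCP site, by -2.12 and -1.46. CD3D, a chain of the T cell receptor complex, read 2.61 at day 4 and 13.2 at day 7 (1.98). CTLA4, an inhibitory receptor of T cells, read 0.539 at day 4 and 4.76 at day 7 (1.90), while its other probe set gave 0.07. They were the 2 higher genes among 14 of the T and NK cell list, a share near the 15.9% of all genes. None of the 14 was lower, and the median was 0.05. JCHAIN, of antibody-secreting cells, read 10 at day 4 and 50.9 at day 7 (2.24). MS4A1, which encodes CD20 of B cells, was at 0.646 at day 4 and 1.60 at day 7 (0.66). Of single genes past 2-fold in other lists, the muscle genes MYL1 and DES differed by -2.0 and 1.09, and PMP22, of myelin, by 1.61. The erythroid genes CA1 and GATA1, weak at 3.33 and 2.18 at day 4, differed by -1.93 and -1.07. The other 4 of the 6 erythroid genes had positive differences, and the list median was 0.26.

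Side by side, the empty hole and the beta-TCP site shared directions, with larger differences in the empty hole under the scaling used. With beta-TCP 513 genes were higher (4.87%) and 272 lower (2.58%), with a median over all genes of 0.06. The 296 genes that were higher at both made up 17.6% of those of the empty hole and 57.7% of those of the beta-TCP site, and the 141 lower at both made up 28.3% and 51.8%. In the empty hole the median over all genes was 0.27. Scaling to the 90th percentile, quantile normalization and differences relative to the median gene gave 790, 987 and 999 higher genes there. The same settings gave 1003, 758 and 879 lower genes. They were not run on the beta-TCP pair, so the part of the scaling in this contrast was not tested. Of the genes higher in the empty hole, 88.9% had a positive difference at the beta-TCP site, where 55.1% of all genes did. Of the lower genes, 81.1% had a negative one. The median over the higher genes was 1.35 in the empty hole and 0.51 at the beta-TCP site, and over the lower genes -1.38 and -0.66. These genes were chosen on the empty hole, which by itself makes its median the larger. The Pearson correlation between the differences at the 2 sites was 0.546, across genes and not across samples.

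Opposite calls were few. Only 5 genes were higher in the empty hole and lower at the beta-TCP site, and 16 were lower and higher. Among the genes of the described groups the latter were LAMA3, DSC2, S100A14, S100A2, FABP4, ODAM, an epithelial protein of the tooth attachment, and the interferon-induced ISG15 and MX1. No test compares the sites, since each has 1 array per day.

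**Figure D5:**
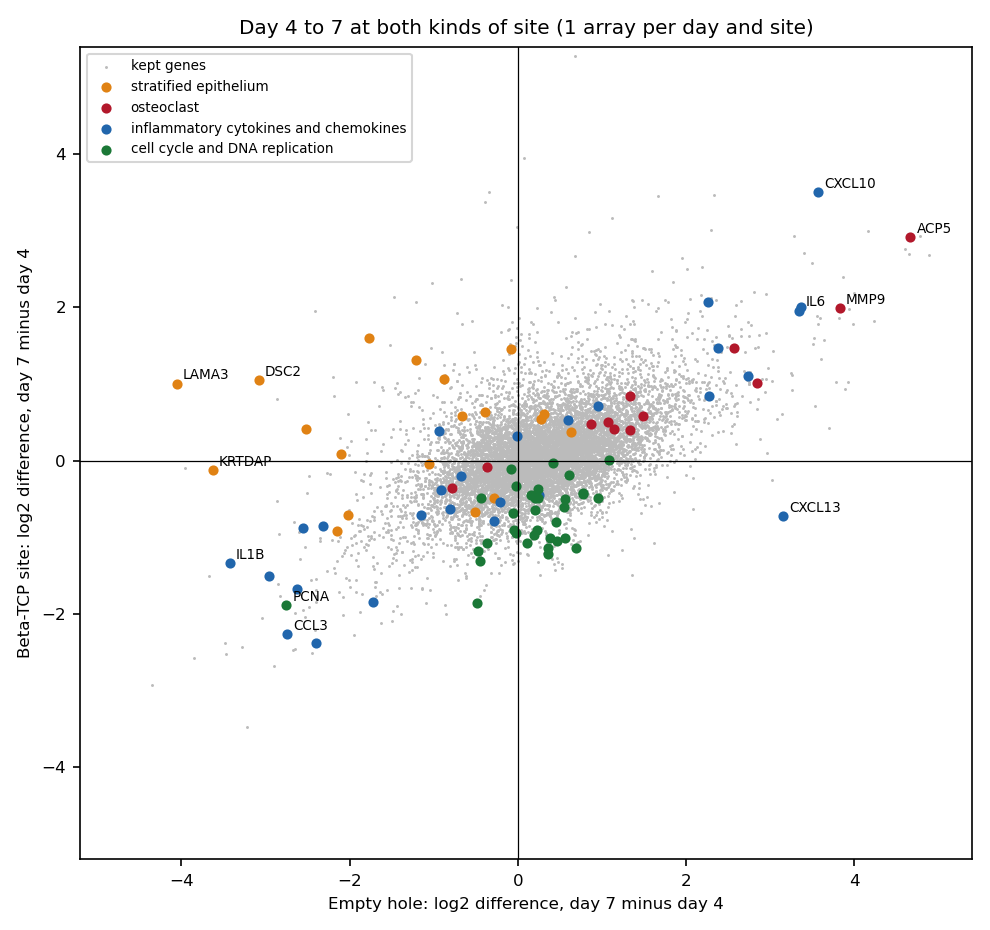
Log2 difference, day 7 minus day 4, in the empty hole (x axis) and at the beta-TCP site (y axis) for each gene, with 4 gene lists coloured. Inflammatory (blue) and osteoclast (red) genes mostly have the same sign at both sites, cell cycle genes (green) lie mostly below 0 on the y axis with a median of -0.75, and epithelial genes (orange) are mostly negative in the empty hole, 16 of 19.

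The empty hole at day 14 is deposited on another scale, and its levels are given after division by the array median. Several genes that were high at day 7 stood between days 4 and 7 there: ACP5 read 42.9, MMP13 20.3, MMP9 73.2 and IBSP 13.1. CRYAB read 3.90, below its day 4 level of 4.73. RARRES1 at 136, VWF at 72.6 and C1R at 33.6 were nearer to their day 7 than to their day 4 levels. C1S read 233 and ALPL 27.1, above their day 7 levels of 123 and 10.2. S100A8 was at 143, below both earlier days.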

How the data were processed

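RNA from mandibular bone specimens was labelled from 100 ng of total RNA and hybridised to Affymetrix canine arrays, per the labels' protocols. For days 4 and 7 the authors deposited values as a ratio to the array's own median (medians 1.00, lowest value 0.01). The day 14 values they deposited are an intensity that was not divided, whose median is 12.0 (empty hole) or 6.2 (beta-TCP). Both units were read from the values, and no source used here names the software or algorithm.

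Each of the 6 arrays was divided by its median over 42860 probe sets, and log2(value + 1) was taken, which understates differences of weak genes. A probe annotation gave 1 gene for 29254 probe sets, several for 439 and none for 13167. By gene ID 27680 matched RefSeq's gene table (UU_Cfam_GSD_1.0), used for names only. In the main setting 90 pairs (180 probe sets) whose names differ only in the ending _a_at or _at were dropped. The probe set with the highest mean over all arrays stood for each gene, and a filter at the 40th percentile of the probe set means kept 10530 of 15112 genes. These means include the beta-TCP arrays, so a gene can pass the filter on high values at that site. Python 3.11.15, numpy 2.4.6 and pandas 2.3.3 were used, and the counting was tested on simulated data.

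With 1 array per group no test was made. Named are the 15 highest and 15 lowest genes with a symbol, the 4 members of each list that lie farthest apart by at least 2-fold, and a fixed set of markers. A gene among the 15 highest is not described here. Other list members named as examples were chosen after their values were seen. The comparison and the lists were chosen with earlier results of these data known. A planned search of promoter letters was not run. Alternatives changed the scaling, the pseudocount, the filter, the choice and type of probe set, and the pairs left out.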

Additional observations from a re-analysis of the deposited data

Results flagged for a closer look

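LAMA3, DSC2, S100A14, S100A2, FABP4, ODAM, ISG15 and MX1 drew attention because they moved at least 2-fold in opposite directions at the 2 kinds of site. With 1 array per day and site, the difference between sites was not tested. LAMA3 differed by -4.06 in the empty hole and by 1.01 at the beta-TCP site, where it read 3.81 at day 4 and 8.67 at day 7. DSC2 differed by -3.08 and 1.05, with levels of 1.84 and 4.90 at the beta-TCP site. For both epithelial genes the empty hole at day 4 held the highest of the 4 levels (60.2 and 19.6).

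FABP4 differed by -2.42 in the empty hole, from 13.3 to 1.68, and by 1.96 at the beta-TCP site, from 6.15 to 26.8. ODAM differed by -1.47 in the empty hole, from 3.53 to 0.629, and by 2.14 at the beta-TCP site, from 0.161 to 4.13.

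S100A14 differed by -1.77 in the empty hole and 1.60 at the beta-TCP site, where it read 2.26 and 8.90. S100A2 differed by -1.21 and 1.32, with 12.3 and 32.2 at the beta-TCP site. ISG15 differed by -1.21 and 2.07, and MX1 by -1.01 and 2.31. ISG15 read 12.6 and 56.2 at the beta-TCP site, and MX1 read 7.28 and 40.2.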

How the results depend on the processing

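Against 1678 higher genes, the count was 790 after scaling to the 90th percentile, 987 after quantile normalization, 999 relative to the median gene, 902 and 319 with pseudocounts of 4 and 16, 1091 when all probe sets of each gene were averaged and 769 with CfaAffx probe sets only. Against 498 lower genes, the same settings gave 1003, 758, 879, 234 and 107, with a pseudocount of 0.25 giving 864 and Cfa probe sets only 254. The values as deposited, other filters, another choice of probe set and the pairs kept left both counts within 1.5 times. The median of the dental and periodontal ligament list (0.56, 3 genes) turned to -0.024 with no filter and -0.18 with CfaAffx probe sets only, and KLF4 (1.77) and SELE (2.74) turned to -0.79 and -0.12 with CfaAffx probe sets only. The medians of the macrophage, integrin, cell cycle, erythroid, and T and NK cell lists turned negative after scaling to the 90th percentile, and CfaAffx probe sets alone turned the sign of 7 list medians, the inflammatory one to 0.27. No other gene of the lists or named rule with a 2-fold difference changed sign under a setting tried. With a pseudocount of 16, 201 of all 650 genes of the lists or named rule, called or not, moved by over 1.5-fold, since it shrinks weak genes, and 10 of 40 list medians did. No paired analysis was possible because each day has 1 array and the labels carry no replicate numbers.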

Other observations

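Of 20 genes of antigen presentation and the interferon response, 3 were higher and 6 lower (none and 7 after scaling to the 90th percentile), with a median of -0.06 (0.08 with CfaAffx probe sets only). The share of higher genes is near that of all genes. The 3 higher ones were TAP1, PSMB10 and PSMB8. TAP1, a peptide transporter, read 21.5 at day 4 and 54.8 at day 7 (1.31), PSMB10 8.73 at day 4 and 22.7 at day 7 (1.29) and PSMB8 21.1 at day 4 and 47.9 at day 7 (1.15), both subunits of the immunoproteasome. Among the lower ones, which interferon induces, OAS1 read 4.95 at day 4 and 0.655 at day 7 (-1.85), RSAD2 4.12 at day 4 and 0.490 at day 7 (-1.78), ISG20 124 at day 4 and 40 at day 7 (-1.61) and ISG15 45.9 at day 4 and 19.3 at day 7 (-1.21). IFI44 and MX1 were the other lower genes, by -1.12 and -1.01. B2M, the light chain of class I molecules, was within 2-fold (0.14).

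Integrins, the receptors that bind cells to matrix, included 6 higher and 1 lower gene among 18 (5 and 4 after scaling to the 90th percentile). ITGB5, a partner of the alpha V chain, read 16.8 at day 4 and 101 at day 7 (2.51), ITGA5, of the fibronectin receptor, 17.1 at day 4 and 55 at day 7 (1.63), and ITGAV 167 at day 4 and 509 at day 7 (1.60), although 1 of 3 probe sets of ITGAV gave -0.12. The leukocyte chains ITGB2 and ITGAM were within 2-fold, at 59 at day 4 and 35.2 at day 7 (-0.73) and 2.78 at day 4 and 0.960 at day 7 (-0.95).

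Genes often used as references were not all level between the days. Of 16, GUSB and SDHA were higher (2.69 and 1.59) and GAPDH was lower (-1.36), on a probe set at 2.30 at day 4 and 0.282 at day 7. That probe set was weak on both days and below the array median at day 7, so the GAPDH call rests on a weak reading. HPRT1 read 38.3 at day 4 and 36.6 at day 7 (-0.06) and B2M 743 at day 4 and 819 at day 7 (0.14).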
